A study of Mus musculus with 30 samples.

Results

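The nuclear-encoded oxidative phosphorylation genes of mouse quadriceps were followed across 8 groups of mice. They were taken from the count table as the protein-coding rows whose symbol begins with Ndufa, Ndufb, Ndufc, Ndufs, Ndufv, Sdha, Sdhb, Sdhc, Sdhd, Uqcr, Cox4i, Cox5, Cox6, Cox7, Cox8 or Atp5. The assembly factors named Ndufaf and Sdhaf were left out, and a gene needed a mean of at least 1 CPM (counts scaled to 1000000 per library, after TMM scaling) over all 30 libraries. Of the 56748 rows of the table, 90 met the symbol rule and 85 of these reached 1 CPM. Complex I holds 39 of the 85 genes, complex II 4, complex III 8, complex IV 16 and complex V 18. The 5 that did not reach 1 CPM were Cox6b2, Cox7b2, Cox8c, Ndufb11b and a further row named Atp5po.

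Oxidative phosphorylation is the last stage of respiration in the inner mitochondrial membrane. Complexes I and II pass electrons from NADH and succinate to ubiquinone, complex III passes them to cytochrome c, complex IV (cytochrome c oxidase) passes them to oxygen, and complex V, the ATP synthase, uses the proton gradient that complexes I, III and IV build up. Most subunits are encoded in the nucleus and a small core is encoded in mitochondrial DNA, and several subunits of complexes IV and V exist as tissue-specific isoforms, with Cox6a2, Cox7a1 and Cox8b as the forms of striated muscle.

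The mice were untreated FVB/N wild-type mice (WT, n = 5) and HSA-LR mice of line 20b, a model of myotonic dystrophy type 1 (DM1) in which a transgene of human skeletal actin carries a long CTG repeat. The actin promoter of that transgene is active in skeletal muscle, so the repeat RNA of this model is made mainly there. HSA-LR mice were untreated (NT, n = 8) or received 1 of 6 treatments through the tail vein at 8 weeks of age. Free L9, an antisense oligonucleotide with locked nucleic acids directed at the repeat, was given at 5.3 mg/kg (n = 3). L9 joined to a bottlebrush polymer (pacDNA-L9) was given to 4 mice at 5.3 mg/kg, to 3 mice at 21.2 mg/kg and to 3 further mice at 42.4 mg/kg. The higher doses were split over repeated injections, with more injections at the highest dose. Dose therefore cannot be told apart from the number and schedule of injections. As controls, 2 mice received a scrambled oligonucleotide on the same polymer at 5.3 mg/kg (pacDNA-Scr) and 2 mice received 40 nanomoles of the polymer alone (Brush). Muscle was taken 2 weeks after the final injection, and poly(A) RNA was sequenced. For the 6 libraries deposited later, the labels give no strain.

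The libraries held 13605309 to 26956558 counts. The 6 later libraries (NT 7, NT 8, pacDNA-L9 5.3 C and D, pacDNA-L9 21.2 C and free L9 C) stood apart from the first 24 on the first principal component, which held 59.9% of the variance, so the fit had a term for the deposited set. Of these, 5 (all but free L9 C) held no counts on mitochondrially encoded genes. Free L9 B had 14438 genes detected at equal depth, against 17479 to 21070 in the other libraries. Summed skeletal muscle markers averaged 71707 to 83381 CPM by group, so the tissue label held in every group. In whole muscle, fewer cells of a type and less RNA per cell cannot be told apart.

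The members were among the abundant transcripts of the muscle and differed widely among themselves. Atp5f1b, the catalytic beta subunit of the ATP synthase, had the highest level per kilobase of annotated mRNA, 1573 CPM per kb as a mean of all libraries. It was followed by the muscle isoform Cox6a2 at 1151, the catalytic alpha subunit Atp5f1a at 998, Cox4i1 at 876 and Atp5f1e at 774 CPM per kb. The lowest were Cox4i2 at 2.80, Atp5if1, which encodes the inhibitor protein of the ATP synthase, at 5.10, and Ndufa4l2 at 6.93 CPM per kb. The median member had 142 CPM per kb in complex I, 163 in complex II, 256 in complex III, 226 in complex IV and 292 in complex V. In complex I Ndufa4 was highest at 573 CPM per kb, in complex II Sdha, the flavoprotein of succinate dehydrogenase, was highest at 244 and its membrane anchor Sdhc lowest at 99.1, and in complex III the core protein Uqcrc1 was highest at 477 and Uqcr11 lowest at 70.7. These levels rest on annotated lengths, which are long for some genes (5250 bases for Cox7a2).

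**Figure D1:**
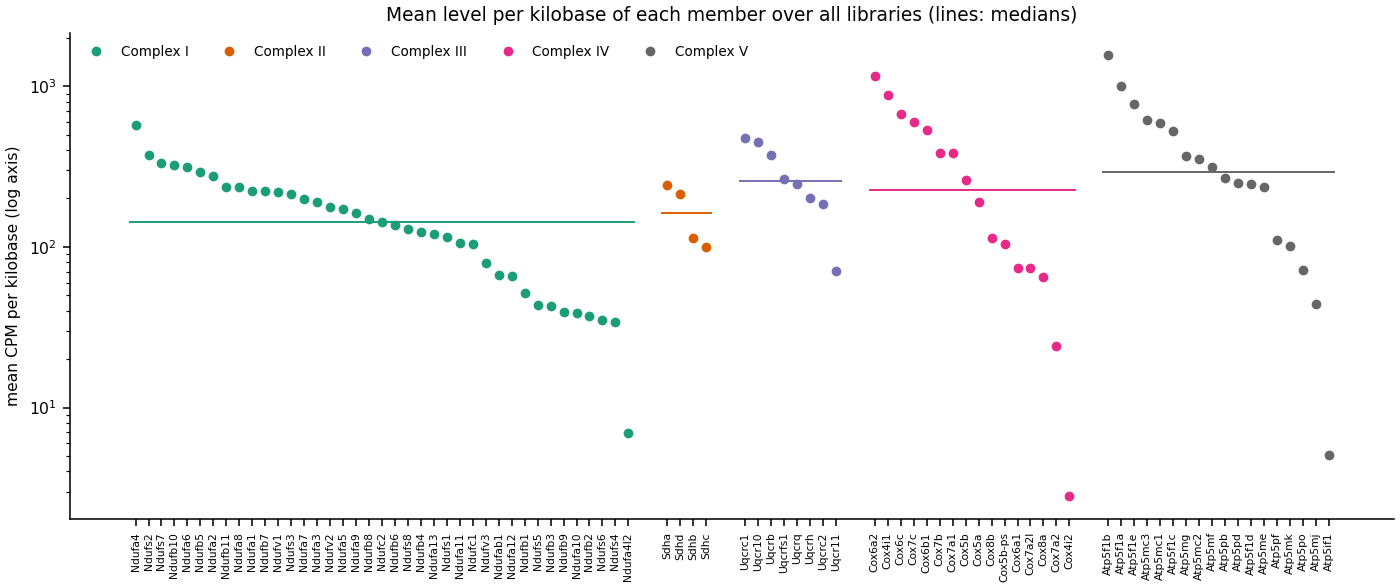
Mean CPM per kilobase of annotated mRNA on a log axis for each of the 85 members over 30 libraries, sorted within each complex, with a line at the median of the complex. Levels span from 2.80 for Cox4i2 to 1573 CPM per kb for Atp5f1b, and complex V has the highest median, 292.

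Added up, the 85 members made 26907 ± 4804 CPM in WT (SD, n = 5) and 27402 ± 3823 CPM in NT (SD, n = 8). The sums were 26276 ± 3010 at pacDNA-L9 5.3 (n = 4), 25918 ± 2694 at 21.2 (n = 3) and 26562 ± 1491 at 42.4 mg/kg (n = 3). They were 26553 ± 6947 with free L9 (n = 3), 24473 ± 6417 with Brush (n = 2) and 25041 ± 336 with pacDNA-Scr (n = 2). The range of every treated group overlapped that of NT, and the widest spread lay within groups. NT 5, the WT library without a number and free L9 A held the 3 highest sums in each of the 5 complexes, and free L9 B had the lowest sum in complexes II and V and the next to lowest in I and III, but ranked 7th from the bottom in complex IV. Brush A was lowest in I, III and IV and next to lowest in II and V. Complex IV took 15.1 ± 1.11% of the members' sum over the 30 libraries, complex V 39.3 ± 1.41% and complex I 27.3 ± 0.69%. The libraries with the highest complex I sums were thus also high in the other complexes, but not every library ranked alike. The library pacDNA-L9 21.2 C ranked 22nd from the bottom in complex I, 8th in II and 11th in V.

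**Figure D2:**
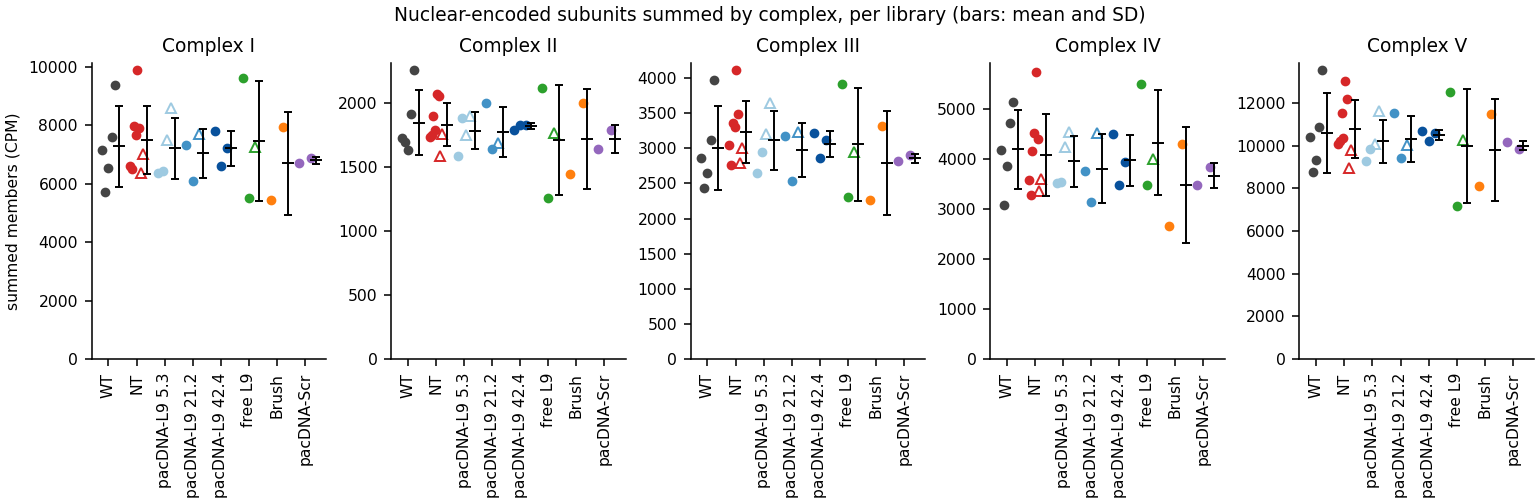
Summed CPM of the members of each complex, from 0, for each library by group. Circles are the first 24 libraries, open triangles the 6 deposited later, and black bars the group mean and SD. The groups overlap in every complex, and within NT the complex I sum runs from 6370 to 9883 CPM.

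The first comparison asked whether the repeat-bearing muscle differs from wild type in its respiratory chain genes. None of the 85 members passed the edgeR quasi-likelihood test at an adjusted p under 0.05 in NT against WT, where 5.31% of the 17518 genes tested passed. By DESeq2 none passed either, where 7.37% of genes did, and 1 member had an unadjusted p under 0.05 against 16.5% of all genes. The median log2 fold change of the members was 0.01, beside -0.03 over all genes, and 47 members lay above 0 and 38 below, where 46.4% of all genes lay above 0. By complex the medians were 0.00 for I, -0.01 for II, 0.09 for III, -0.01 for IV and 0.02 for V. The 95% confidence interval of the fold change lay within 2-fold in both directions for 81 of the 85 members and within 1.5-fold for 62. The 4 with wider intervals were Cox4i2, Cox8b, Ndufa12 and Cox5b-ps.

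Cox7a2l, a relative of the Cox7a subunits that takes part in joining complexes III and IV into supercomplexes, had the smallest p in NT against WT. Its levels in WT were 84.9, 72.0, 71.1, 86.5 and 108.2 CPM. In NT they were 113.6, 100.1, 124.2, 103.3, 135.2 and 146.6 CPM in the first 6 libraries and 76.7 and 87.4 CPM in NT 7 and NT 8. The first 6 NT libraries thus lay above 4 of the 5 WT libraries, while NT 7 and NT 8 lay within the WT range. The log2 fold change was 0.43 ± 0.15 (SE), with an adjusted p of 0.0940 by edgeR. Adjusted p ran from 0.00160 to 0.238 over the alternative settings, and among the first 24 libraries alone it was 0.0451, with 1 member past the threshold beside 5.45% of genes. Without the WT library that carries no number it was 0.0393. The next members by p were Ndufa4l2 (log2 fold change -0.42 ± 0.21, adjusted p = 0.321 by edgeR) and Ndufb5, an accessory subunit of complex I (0.33 ± 0.16, adjusted p = 0.324). Ndufa4l2 measured 6.17 to 11.3 CPM in WT and 4.50 to 7.17 CPM in NT, and Ndufb5 measured 234 to 367 CPM in WT and 265 to 453 CPM in NT, so both overlapped.

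**Figure D3:**
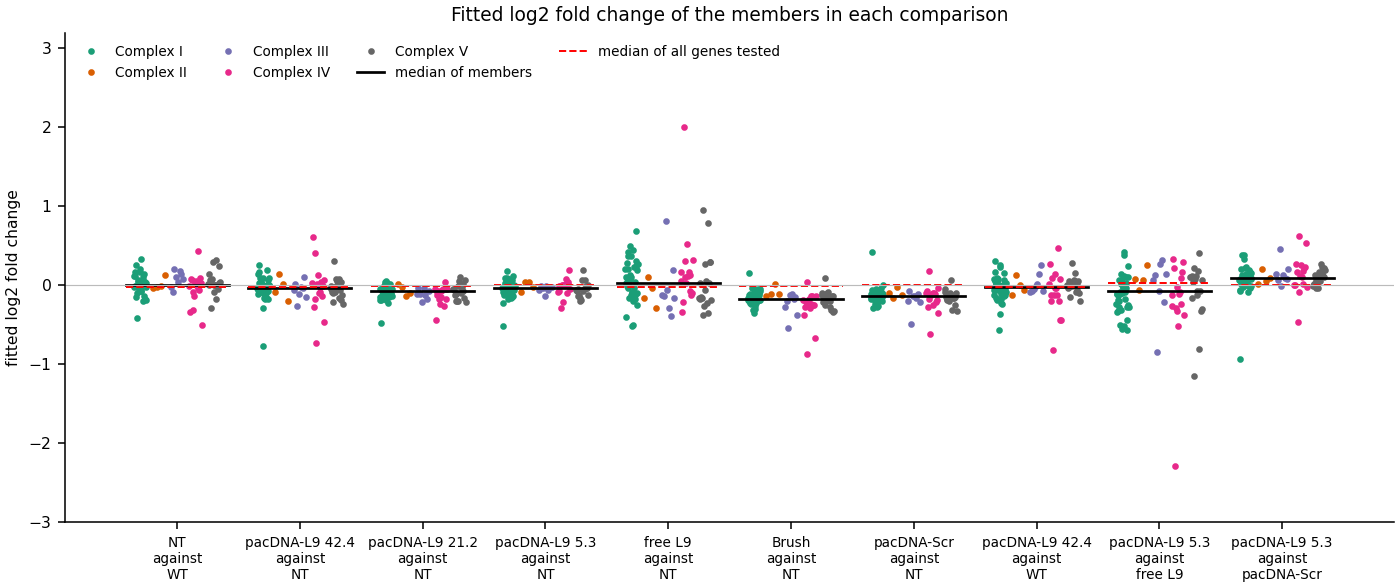
Fitted log2 fold change of each of the 85 members in 10 comparisons, coloured by complex. The black line is the median of the members and the red dashed line that of all 17518 genes tested. Most points lie close to 0, and Cox5b-ps lies farthest from it, at 2.00 in free L9 against NT and -2.28 in pacDNA-L9 5.3 against free L9.

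The muscle and widely expressed isoforms were then set side by side. Cox6a2, the muscle form, was 14.7 ± 4.34 times as abundant per kb as its widely expressed relative Cox6a1 in WT (SD, n = 5), 21.3 ± 8.53 times in NT (n = 8) and 22.9 ± 4.78 times at pacDNA-L9 42.4 (n = 3). Cox8b exceeded Cox8a by a ratio of 2.20 ± 0.74 in WT, 1.59 ± 0.58 in NT and 2.12 ± 0.20 at 42.4 mg/kg. The size of that ratio depends on annotated lengths of 2149 bases for Cox8b and 553 for Cox8a. Before division by length, the means over all libraries were 242 CPM for Cox8b and 36.1 CPM for Cox8a. Of the exon bases of Cox8b, 51.5% lie under exons of the opposite strand. Cox4i1, the usual form of subunit 4, exceeded Cox4i2, the form linked to low oxygen and lung, by a ratio of 271 ± 60.3 in WT and 367 ± 119 in NT. Ndufa4 exceeded Ndufa4l2 by 67.02 ± 14.3 in WT and 93.5 ± 17.9 in NT. These ratios overlapped between the groups, and none of the single isoforms passed the test. Cox7a1 and Cox7a2 held the steadiest ratio, 15.5 ± 2.23 in WT and 15.9 ± 1.72 in NT, though its level depends on the annotated length of Cox7a2. Of the 3 genes that encode the identical c subunit of the ATP synthase, Atp5mc3 made 42.3 ± 2.98% of the per-kb sum in WT and 37.0 ± 3.91% in NT. Its share was 37.2 to 41.0% in NT 1 to NT 6 but 30.8 and 31.3% in NT 7 and NT 8. The ratio of Cox6a2 to Cox6a1 was 4.17 to 28.0 in NT 1 to NT 6 and 27.1 and 31.9 in NT 7 and NT 8. WT and pacDNA-L9 42.4 have first-set libraries only, while the NT means of all these ratios mix both deposited sets without a term for the set.

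The widely expressed isoforms Cox6a1 and Cox8a were highest in single animals. Cox6a1 measured 36.8 to 82.5 CPM in WT and 18.6 to 153.3 CPM in NT, where the median was 27.8, the highest was NT 4 and the next was 55.6 CPM. All 5 WT libraries thus lay above 6 of the 8 NT libraries, while the fitted log2 fold change was -0.08 ± 0.37 in NT against WT (adjusted p = 0.971 by edgeR). In pacDNA-L9 42.4 against WT it was -0.81 ± 0.48 (adjusted p = 0.316 by edgeR), the lowest of the 85 members there. It measured 83.0 CPM in pacDNA-L9 5.3 B against 19.3 to 28.5 CPM in the other 3 libraries of that group, and 77.9 CPM in free L9 B. Cox8a was 99.8 CPM in NT 4 against 18.0 to 45.5 CPM in the other NT libraries, and 70.5 CPM in pacDNA-L9 5.3 B against 24.9 to 30.9 CPM. Brown adipocytes are rich in mitochondria, and in mice they also express Cox7a1 and Cox8b. Markers of brown and of general adipocytes were both high in several of the same libraries. The summed brown adipocyte markers were 310.4 CPM in pacDNA-L9 5.3 B, 149.2 in NT 4, 139.6 in free L9 B, 106.1 in WT 4, 102.3 in WT 2 and 47.2 in WT 1, and at most 33.5 CPM in the other 24 libraries. Ucp1, the uncoupling protein of brown fat, was 240.4 CPM in pacDNA-L9 5.3 B and 43.7 in NT 4, with a median of 0.212 CPM in NT. The summed general adipocyte markers were 1285 CPM in NT 4, 698.8 in free L9 B, 629.3 in WT 2, 505.1 in pacDNA-L9 5.3 B and 445.0 in WT 4, and at most 275.9 CPM in the other 25 libraries. Of the 6 libraries with the highest Cox6a1, 5 were among the 6 with the highest brown adipocyte sum, as were 5 of the 6 with the highest Cox8a. The median of Cox6a1 was 80.2 CPM over the latter 6 and 29.8 CPM over the other 24, and that of Cox8a was 50.6 and 30.7 CPM. The part of other cell types in these levels was not tested.

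**Figure D4:**
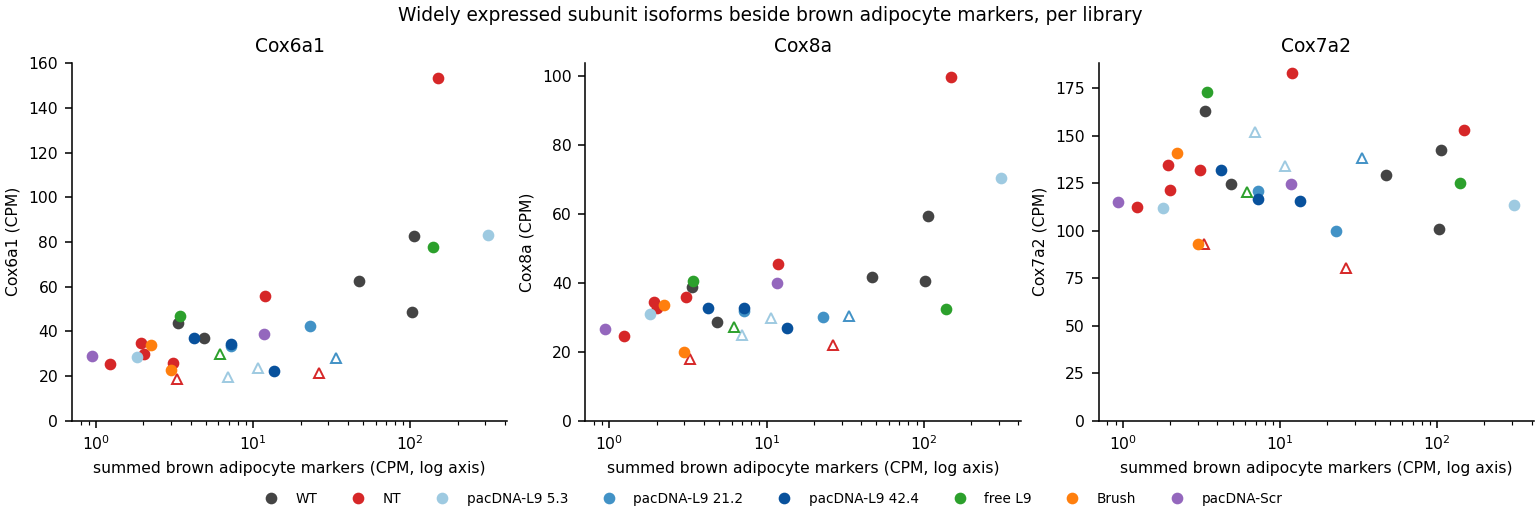
CPM of Cox6a1, Cox8a and Cox7a2, from 0, against the summed CPM of brown adipocyte markers on a log axis, 1 point per library, coloured by group (open triangles are the 6 later libraries). NT 4 (153.3 CPM of Cox6a1) and pacDNA-L9 5.3 B (83.0 CPM) lie at the upper right for Cox6a1 and Cox8a, and Cox7a2 shows no such pair.

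At the highest dose of pacDNA-L9, 42.4 mg/kg, no member passed against NT, where 3.14% of genes passed by edgeR. None passed by DESeq2, where 5.22% of genes did, and 1 had an unadjusted p under 0.05 against 13.1% of all genes. The median log2 fold change was -0.04, beside -0.02 over all genes, with 32 members above 0 where 47.5% of all genes were. The interval lay within 2-fold for 79 members and within 1.5-fold for 50. The member with the smallest p was Ndufb2, a small accessory subunit of complex I, at 14.7, 13.1 and 13.2 CPM in the 3 treated libraries. In NT it was 13.5 to 45.1 CPM in the first 6 libraries and 5.67 and 6.92 CPM in NT 7 and NT 8. The treated libraries are all of the first set. Their values of 13.1 and 13.2 CPM lay below all of the first 6 NT libraries, and inside the NT range only through NT 7 and NT 8. The log2 fold change of Ndufb2 was -0.77 ± 0.35 with an adjusted p of 0.326 by edgeR. Ndufb4 was at -0.29 ± 0.16 and the scarce Cox4i2 at 0.61 ± 0.37. All 3 libraries of this dose were among 9 that the table names by group and running number. With a term for that naming, in the first 24 libraries without free L9 B, the median of the members was -0.36. Against WT, 42.4 mg/kg again gave 0 members, where 9.98% of genes passed by edgeR and 13.2% by DESeq2, which also gave 0. An unadjusted p under 0.05 was reached by 2 members, against 23.5% of all genes. These were Cox7a2l (0.47 ± 0.18, adjusted p = 0.105 by edgeR), with 128.5, 102.0 and 120.0 CPM in the treated muscle, and Ndufb4 (-0.37 ± 0.17). These comparisons and NT against WT share their libraries.

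The lower doses gave the same count. At 21.2 mg/kg no member passed, where 0.0685% of genes passed by edgeR, and 0 members had an unadjusted p under 0.05, against 2.21% of genes. The median log2 fold change was -0.08, and 12 of the 85 members lay above 0, where 48.0% of all genes did. At 5.3 mg/kg 0 members and 0.0% of genes passed, 0 members and 1.58% of genes had an unadjusted p under 0.05, and the median was -0.04 with 25 members above 0, where 49.4% of all genes were. DESeq2 called 0 members at both doses, beside 0.109% and 0.00571% of genes. Complex III had all 8 members below 0 at both doses, with medians of -0.11 at 21.2 and -0.03 at 5.3 mg/kg. The SD of a library's median over the members within groups was 0.262 on the log2 scale, which is wider than these shifts.

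The polymer controls had the lowest medians of the 10 comparisons. With Brush the median was -0.18 and 81 of the 85 members lay below 0, while the median of all genes was -0.01 and 48.0% of all genes lay above 0. With pacDNA-Scr the median was -0.13 and again 81 members lay below 0, where the median of all genes was -0.00 and 49.7% lay above 0. No member passed in either comparison, where 0.0% of genes passed by edgeR in both and 0.0343% and 0.0% by DESeq2, which also called 0 members. At an unadjusted p under 0.05 there were 0 members in both, against 1.88% and 1.54% of genes. With 2 libraries in each group these medians rest on single animals. The sum over all members was 19936 CPM in Brush A and 29010 CPM in Brush B, and without Brush B the median was -0.50 while without Brush A it was 0.0789. The 2 pacDNA-Scr libraries lay close together in every complex, with complex I sums of 6710 and 6894 CPM. Both comparisons use the same NT libraries. In pacDNA-L9 against pacDNA-Scr, both at 5.3 mg/kg, 67 members lay above 0, where 49.6% of all genes did, with a median of 0.10, 0 passed by edgeR or by DESeq2 where 0.0% of genes did in each, and 0 had an unadjusted p under 0.05 against 1.53% of genes. The interval lay within 1.5-fold for 15 of the 85 members in that comparison, the fewest of the 10.

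Free L9 against NT had the most members with a small p before adjustment. No member passed against NT by edgeR, where 0.942% of genes passed, and 8 had an unadjusted p under 0.05, 7 of them higher and 1 lower, against 13.8% of all genes (8.31% higher and 5.51% lower). The median of the members was 0.03, and 45 lay above 0 where 47.6% of all genes did. DESeq2 called 2 of the 85, Atp5if1 and Cox5b-ps, both higher, beside 3.09% of genes. The 8 members were named because of these p-values. Cox5b-ps (log2 fold change 2.00 ± 0.56, adjusted p = 0.0874 by edgeR) is a copy of Cox5b and is described with the other copies. Atp5if1 measured 10.7, 16.1 and 12.4 CPM in free L9 A, B and C. In NT it was 3.69 to 8.02 CPM in the first 6 libraries and 13.7 and 11.1 CPM in NT 7 and NT 8, and in the 6 later libraries of all groups it was 11.1 to 16.1 CPM. Apart from free L9 A and B, the first 24 libraries stayed at or under 8.02 CPM. The fitted log2 fold change of Atp5if1 was 0.95 ± 0.27, with an adjusted p of 0.0817 by edgeR, and 34.6% of its exon bases lie under exons of the opposite strand.

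Free L9 B set apart several of the others. Atp5mk, a small subunit of the ATP synthase, was 470 CPM in free L9 B, 190.6 in free L9 A and 148.2 in free L9 C, and at most 222.5 CPM in any library but free L9 B. Uqcrb, a subunit of complex III, was 705 CPM in free L9 B but 218.9 and 125.2 CPM in free L9 A and C, and at most 345.2 CPM in any other library. At the other end, Uqcr11 was 35.7 CPM in free L9 B and 126.6 to 329.2 CPM in all NT libraries, and Atp5mc2 was 30.9 CPM in free L9 B against 192.8 to 265.9 CPM in NT. The log2 fold changes were 0.79 for Atp5mk, 0.81 for Uqcrb, 0.69 for Ndufs5, 0.53 for Cox6c, 0.43 for Ndufa6 and -0.29 for Uqcrc2, and none passed. Free L9 B did not set Ndufs5 apart, which measured 49.1, 24.9 and 30.2 CPM in free L9 A, B and C. In the 5 later libraries without mitochondrial counts, which share the set term with free L9 C, Ndufs5 measured 9.29 to 17.0 CPM. With free L9 B left out of the fit, 1 member passed, Cox5b-ps, where 1.54% of genes did. In pacDNA-L9 against free L9 at the same 5.3 mg/kg, 0 members passed by edgeR, where 0.719% of genes did. There were 4 members with an unadjusted p under 0.05, all lower, against 11.2% of all genes in either direction and 6.15% lower, and DESeq2 called 2, Atp5if1 and Cox5b-ps, beside 2.41% of genes. The values were -2.28 for Cox5b-ps, -1.15 for Atp5if1, -0.80 for Atp5mk and -0.50 for Ndufa6. The median was -0.07, and 35 members lay above 0 where 52.6% of all genes did. Both comparisons use the same free L9 libraries.

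Some members have near-identical processed copies elsewhere in the genome, and the share of counts on gene and copy differed between libraries. These genes and the 3 pairs shown were chosen after their values were seen. Positions are in GRCm39. Ndufa12, an accessory subunit of complex I, lies at chr10:94034582-94057450 on the plus strand, and Ndufa12-ps is a processed pseudogene at chr5:130217236-130217637, plus strand. Ndufs5 lies at chr4:123606481-123612002 (minus) and Ndufs5-ps at chr16:42775994-42776312 (plus). Cox5b lies at chr1:36730530-36734495 (plus). Cox5b-ps at chr13:21685120-21685616 (minus) is annotated as protein-coding, and is therefore 1 of the 85. The copies matched the mRNA at 400 of 402 bases for Ndufa12, 317 of 319 for Ndufs5 and 493 of 497 for Cox5b. The following stretches of coding sequence, 30 bases each, show the first difference of each pair in capitals. Positions count from 1 at the A of the gene's start codon, and the stretches cover bases 109 to 138 of Ndufa12, 55 to 84 of Ndufs5 and 88 to 117 of Cox5b. The differences are A135G, T81C and C114T, with the base of the gene first.
Ndufa12: acactggtgggagaagacaaatatggAaat
Ndufa12-ps: acactggtgggagaagacaaatatggGaat
Ndufs5: atgttcctaagcgcagaacagccctaTaag
Ndufs5-ps: atgttcctaagcgcagaacagccctaCaag
Cox5b: tccatggcttctggaggtggtgtcccCact
Cox5b-ps: tccatggcttctggaggtggtgtcccTact

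The longest stretch without a difference was 278 bases for Ndufa12 and its copy, 214 for Ndufs5 and 199 for Cox5b, so a read pair inside it does not tell the genes apart. In the 5 libraries without mitochondrial counts Ndufa12 measured 134 to 163 CPM and its copy 12.5 to 20.0 CPM. In the other 25 libraries Ndufa12 measured 20.4 to 125.7 CPM and its copy 74.5 to 163.6 CPM. Ndufa12 thus took 88.1 to 91.5% of the sum in the former and 14.2 to 49.4% in the latter, and these ranges did not overlap. The sum of gene and copy did overlap, at 147 to 179 CPM and 123 to 285 CPM. Cox5b-ps measured 2.92 to 5.60 CPM in the 5 libraries and 18.9 to 99.9 CPM in the other 25, while Cox5b measured 286 to 348 and 137 to 329 CPM. Ndufab1-ps, a copy of the acyl carrier protein gene, measured 0.441 to 0.747 CPM against 11.0 to 27.9 CPM. Ndufs5 went the other way, at 9.29 to 17.0 CPM in the 5 libraries and 17.8 to 49.1 CPM in the other 25. Its copy measured 80.6 to 118 CPM and 62.2 to 140 CPM. Ndufs5 thus took 9.53 to 15.0% of the sum in the 5 libraries and 15.1 to 32.2% in the other 25. Free L9 C, which was deposited with the 5 but holds mitochondrial counts, lay with the other 25 in each case, at 42.1 CPM of Ndufa12, 145 CPM of its copy and 62.7 CPM of Cox5b-ps. The term for the deposited set therefore treats free L9 C like the 5, and the fold change of 2.00 for Cox5b-ps in free L9 rests on that library. With the counts of the copies added to their genes, no member passed in any of the 10 comparisons. How the counts were assigned between gene and copy is not given in the sources used here, and its part in these levels was not tested.

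**Figure D5:**
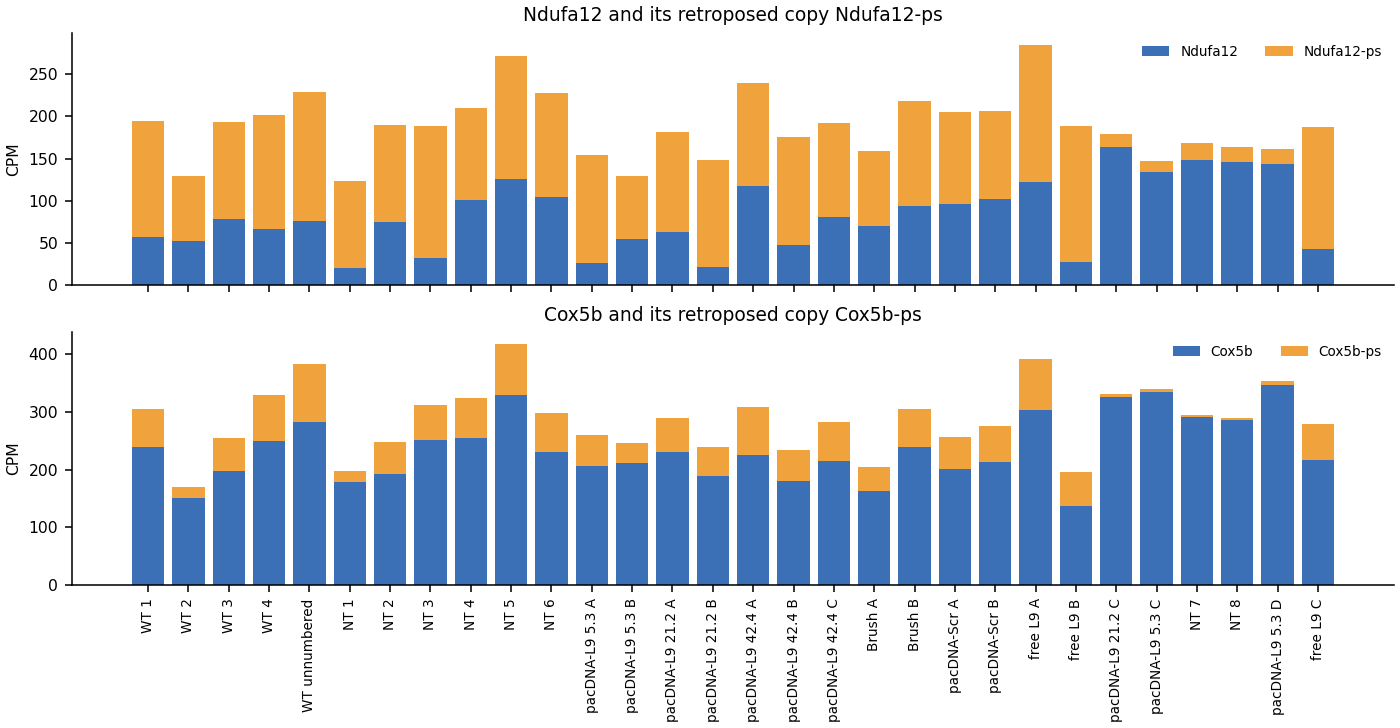
CPM of Ndufa12 and Cox5b (blue) with their copies Ndufa12-ps and Cox5b-ps (orange) stacked on top, from 0, for each of the 30 libraries. For Ndufa12, the 5 libraries without mitochondrial counts have 88.1 to 91.5% of the counts on the gene, and the other 25 have 14.2 to 49.4%.

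The 2 later NT libraries differed from the first 6 in many members. In both NT 7 and NT 8, 4 members (Uqcrc2, Ndufs1, Ndufa12 and Atp5if1) were higher than in all of NT 1 to NT 6, where 21.6% of genes tested were. In the other direction 30 members were lower in both, where 13.3% of genes were. They included Cox4i1, at 464 and 519 CPM against 601 to 948 CPM, Cox8b, at 91.4 and 75.7 CPM against 175.7 to 429.3 CPM, and Atp5mc3, at 369 and 393 CPM against 495 to 705 CPM. The set cannot be told apart from what else differed between these animals.

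The other genes of the pathway were read from lists that were chosen with earlier results of these data known. None of the 14 genes of the tricarboxylic acid cycle or the 77 mitochondrial ribosomal proteins tested passed in any of the 10 comparisons by edgeR or DESeq2. The same held for 7 further genes outside the symbol rule (Cyc1, Cycs, Etfa, Etfb, Etfdh, Coq7 and Coq9). At an unadjusted p under 0.05 there were 0, 6 and 0 of them in NT against WT, beside 16.5% of all genes. Of 45 assembly factors, 1 passed at 42.4 mg/kg against NT, where 3.14% of genes did. This was Atpaf1, which helps to build the F1 part of the ATP synthase, at 23.5 to 27.2 CPM in the 3 treated libraries, 32.2 to 43.3 CPM in NT 1 to NT 6 and 69.2 and 69.1 CPM in NT 7 and NT 8. It fell by 0.50 ± 0.13 on the log2 scale (adjusted p = 0.0259 by edgeR), and lost the call without each of the 3 treated libraries in turn and without NT 2, with adjusted p of 0.131, 0.111, 0.0963 and 0.0533. Over all alternatives its adjusted p ran from 0.00242 to 0.196. By edgeR, Atpaf1 was also the 1 assembly factor to pass in pacDNA-L9 42.4 against WT (-0.56 ± 0.14, adjusted p = 0.00789), where 9.98% of genes passed. It was again the 1 in free L9 against NT (-0.55 ± 0.13, adjusted p = 0.0338 by edgeR), where 0.942% did. Atpaf1 measured 22.7, 26.6 and 47.1 CPM in free L9 A, B and C. DESeq2 called Tmem70 as well, lower, at 42.4 mg/kg against WT (13.2% of all genes), and Cox16, lower, in free L9 against NT (3.09%).

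Of 16 regulators of mitochondrial genes, 1 passed at 42.4 mg/kg against NT by edgeR (3.14% of all genes), and DESeq2 called Ppargc1b as well, lower (5.22% of all genes). Ppargc1a, the coactivator PGC-1 alpha that drives mitochondrial gene programmes, measured 60.9, 163.7 and 86.9 CPM in the 3 treated libraries. In NT it measured 26.3 to 52.5 CPM, in WT 30.6 to 39.6 CPM and at 5.3 mg/kg 27.6 to 32.8 CPM, so all 3 treated libraries lay above those groups. It rose by 1.45 ± 0.25 on the log2 scale (adjusted p = 0.000911 by edgeR, 3 against 8 libraries). Against WT it rose by 1.61 ± 0.28 (adjusted p = 0.000273 by edgeR). Without pacDNA-L9 42.4 B the log2 fold change against NT was 0.96 and the adjusted p 0.109. In the same comparison the nuclear receptor Esrra was at -0.12 ± 0.39, Nrf1 at 0.26 ± 0.15 and Tfam, which packages mitochondrial DNA, at -0.05 ± 0.10, and no member of the 85 passed. Macrophage markers also rose at that dose, 4 of 6 past the threshold by edgeR, and their sum was 118.9 ± 19.2 CPM at 42.4 mg/kg (n = 3) and 52.9 ± 7.78 CPM in NT (n = 8). The mean sum was also above NT in the other polymer groups. It was 82.5 CPM at 5.3 and 95.1 CPM at 21.2 mg/kg of pacDNA-L9, 95.6 CPM with Brush and 65.9 CPM with pacDNA-Scr, beside 43.1 CPM with free L9. Ppargc1a measured 31.7 to 56.3 CPM at 21.2 mg/kg, 38.2 and 41.6 CPM with Brush and 26.4 and 41.5 CPM with pacDNA-Scr. The part of macrophages in the level of Ppargc1a was not tested.

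The 13 protein-coding genes of mitochondrial DNA, read in the 25 libraries that list them, summed to 85940 ± 23634 CPM in WT (n = 5), 74366 ± 11914 CPM in 6 NT libraries and, at the highest dose, 78561 ± 6481 CPM in 3. That was 3.19, 2.66 and 2.97 times the sum of the 85 nuclear members on average, and none of the 13 passed in NT against WT or at any dose of pacDNA-L9 against NT by edgeR without the 5 libraries, with 0 at an unadjusted p under 0.05. With free L9 the sums were 70885, 204752 and 139925 CPM in A, B and C, or 2.11, 10.4 and 5.33 times the nuclear sum, and B and C were the highest of the 25 libraries. In that fit 1 of the 13 passed in free L9 against NT, mt-Nd4, a core subunit of complex I (1.19 on the log2 scale, adjusted p = 0.0384 by edgeR), beside 2.17% of genes. An unadjusted p under 0.05 was reached by 7, where 13.8% of all genes did so in the fit of all 30 libraries. Free L9 C is the only later library left in the fit without the 5 libraries, so the term for the deposited set takes it up and the values of that fit rest on free L9 A and B.

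Of 6 genes of fast fibres, 1 passed in NT against WT, where 5.31% of all genes did, and the other 5 had log2 fold changes of -0.34 to -0.15. The 1 was Myh1, the heavy chain of fast IIx fibres, which rose by 1.29 ± 0.32 on the log2 scale (adjusted p = 0.0138 by edgeR), with 2810 to 7227 CPM in WT and 5028 to 24303 CPM in NT. Its adjusted p was 0.0532 without WT 3, 0.0512 without a filter on low counts and 0.0563 with the replicate number as a block. Of the other 5, Mylpf, a light chain of fast myosin, was at -0.34 ± 0.16 (adjusted p = 0.271). Mb, which encodes the oxygen store myoglobin of oxidative fibres, rose by 1.36 ± 0.25 (adjusted p = 0.000944 by edgeR), with 597 to 1961 CPM in WT and 1978 to 5483 CPM in NT. It was the 1 of 6 skeletal muscle markers to pass by edgeR, and DESeq2 called Des as well, higher, beside 7.37% of all genes. None of the 6 slow-fibre genes passed in NT against WT by edgeR or DESeq2, and 0 had an unadjusted p under 0.05, beside 16.5% of all genes. At 42.4 mg/kg against NT none passed by edgeR or DESeq2 either, and 2 had an unadjusted p under 0.05, beside 13.1% of all genes. All 6 lay above 0 there, with a median log2 fold change of 2.39, where 47.5% of all genes lay above 0. In the other treated groups against NT all 6 also lay above 0, with medians of 1.17 to 1.86, and none passed. Of 80 cytosolic ribosomal protein genes tested 2 rose in NT by edgeR, beside 5.31% of all genes in either direction, and 5 by DESeq2, beside 7.37%, the 2 being Rpl10, up by 0.52, and Rpl4, up by 0.41, where the median of the list was 0.28. Without WT 1 neither passed, and Rpl4 also did not without NT 6 or without the WT library that has no number.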

How the data were processed

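RNA from quadriceps was poly(A) selected and sequenced as read pairs on an Illumina NovaSeq6000. The authors trimmed and mapped the reads to GRCm39 (the submitters' processing notes name HISAT2 2.0.5 and DESeq2, and the study's methods name Rsubread) and deposited raw counts per Ensembl gene, which were used as deposited. Strand and the handling of reads with several matches are not given in the sources used here. No column of another series was found. Library totals were 13605309 to 26956558 counts. Symbols, biotypes and lengths came from GENCODE vM39, which matched 56017 of 56748 rows.

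Counts were scaled by TMM, filtered with filterByExpr over the 8 groups (17518 genes tested, all 85 members among them) and fitted in edgeR 4.0.16 (R 4.3.3) with group and deposited set as terms over all 30 libraries, since the later libraries stood apart. The quasi-likelihood F-test was used with Benjamini-Hochberg adjustment over all genes tested and a threshold of 0.05. SE is the log2 fold change over the root of F, and intervals are 95%. WT, pacDNA-L9 42.4, Brush and pacDNA-Scr have first-set libraries only. Alternatives were DESeq2 1.42.0, other scaling, no filter, no set term, the first set only, sex, running-number naming, a length and GC offset, and each library left out. Labels do not say that libraries of a group come from separate cages or litters, so p-values measure only the spread between these samples.

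Members and lists were chosen with earlier results of these data known. Named members were the isoform families and Atp5if1, the 3 smallest p in NT against WT and in pacDNA-L9 42.4 against NT, and the highest and lowest of each complex per kb; others were chosen after their values were seen. One WT library carries no number. For pacDNA-L9 5.3 and free L9, the deviations of libraries with the same letter correlated at 0.53 (A), 0.38 (B) and 0.712 (C), against -0.25 for other pairs. These deviations kept the difference between the deposited sets, and C is of the later set in both groups. The correlations therefore cannot show whether the letters pair animals. The fit with the letter as a block gave the same member count, 0. Promoter sequences matched 67 of 85 members (78.8%, under the 80% needed), so a search for motifs is void and none is given.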

Additional observations from a re-analysis of the deposited data

Results flagged for a closer look

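Of 90 groups of values tested (sums by complex and isoform levels in groups of 4 to 8 libraries), 6 held a library whose gap to the nearest other library exceeded Dixon's 95% critical value, and chance alone flags about 5%. The summed CPM of complex I was 9883 in NT 5, where the next NT library had 7981. Cox7a1 was 293.2 CPM in NT 5, with the next at 194.8. Cox6a1 was 153.3 CPM in NT 4, with the next at 55.6, and Cox8a was 99.8 CPM there, with the next at 45.5. In pacDNA-L9 5.3 B, Cox6a1 was 83.0 CPM, with the next at 28.5, and Cox8a was 70.5 CPM, with the next at 30.9. The summed brown adipocyte markers were 149.2 CPM in NT 4 and 310.4 CPM in pacDNA-L9 5.3 B, and the general adipocyte markers 1285 and 505.1 CPM. Their part in these levels was not tested.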

How the results depend on the processing

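The count of members past the threshold was 0 in all 10 comparisons, and 139 of 156 alternative values and 91 of 99 values with 1 library left out stayed at 0. In NT against WT it was 1 (Cox7a2l) in the first set only, beside 5.45% of all genes, and with the length and GC offset, beside 7.43%. It was also 1 (Cox7a2l) with the running-number term, beside 5.85%, and in the shared-number libraries without a block, beside 4.92%. In the first set without free L9 B with the running-number term it was 3 (Cox7a2l, Ndufb5 and Atp5mc2), beside 10.3%. That alternative was added after seeing the data. With 1 library left out the count was 0 to 1. In free L9 against NT it was 2 by DESeq2 (Atp5if1 and Cox5b-ps), beside 3.09% of all genes. It was 3 in the first set only, beside 2.24%, and 5 with the offset (2 higher, 3 lower), beside 3.33%. With a term for the libraries without mitochondrial counts it was 3, beside 9.15%. Without those 5 libraries it was 3, beside 2.17%, where the set term takes up free L9 C, so that A and B carry the values. Without free L9 B it was 1, beside 1.54%. These last 3 alternatives were added after seeing the data. With 1 library left out the count was 0 to 9 (9 without free L9 A, 2 higher and 7 lower, 1 without B and 4 without C). In pacDNA-L9 5.3 against free L9 it was 2 by DESeq2, beside 2.41% of all genes. It was 1 in the first set only, beside 0.916%, and 1 without free L9 B, beside 1.66%. With the term for the libraries without mitochondrial counts it was 1, beside 5.82%, and without those libraries it was also 1. With 1 left out it was 0 to 3. In pacDNA-L9 42.4 against WT it was 1 with the offset (Ndufb4, lower), beside 13.3% of all genes, and 0 to 1 with 1 left out. The cause was not tested.

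The median log2 fold change moved to -0.36 in pacDNA-L9 42.4 against NT in the first set without free L9 B with the running-number term. With 1 library left out it ran from -0.24 to 0.19 in free L9 against NT, from -0.50 to 0.0789 in Brush against NT and from -0.24 to 0.20 in pacDNA-L9 5.3 against free L9. Mean sums moved beyond 1 SD with mitochondrial genes removed before scaling, in pacDNA-Scr to 7336, 1848, 3084, 3956 and 10783 CPM (complexes I to V) and in pacDNA-L9 42.4 to 1958, 3306 and 11321 CPM (II, III and V), and with library size alone to 1779 CPM (II in pacDNA-L9 42.4).

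Signs turned for small changes. Atp5if1 was 0.13 in NT against WT without the set term, and -0.11 without it and -0.12 with the running-number term in pacDNA-L9 42.4 against NT. Ndufa4l2 was -0.0946 there in the first set without free L9 B with that term, and -0.00520 to 0.46 with 1 library left out. In free L9 against NT, Ndufb2 was -0.18 in the first set, -0.0784 with the term for libraries without mitochondrial counts, -0.19 without them and -0.0326 to 0.60 with 1 left out. Without free L9 B, Atp5mc1 was 0.0452 and Atp5f1b 0.0559, and with 1 left out they ran from -1.03 to 0.0452 and from -0.35 to 0.0559. In pacDNA-L9 42.4 against WT, Ndufb5 was -0.0162 in the first set without free L9 B with the running-number term and -0.00436 with that term alone, where Ndufb2 was 0.00970. In pacDNA-L9 5.3 against free L9, Ndufa4l2 was 0.0309 in the first set, 0.0362 without the 5 libraries and -0.61 to 0.0263 with 1 left out, and Ndufb2 was 0.00771 with the term for those libraries.

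In NT against WT the libraries with shared numbers gave correlations of 0.16, -0.05, 0.11 and 0.19, so the numbers were not read as pairing. With the replicate block 0 members and 631 of 13810 genes passed, and without it 1 and 680. In pacDNA-L9 5.3 against pacDNA-Scr (0.103 for both letters) the block gave 0 members and 5 of 14238 genes, and 0 genes without it. The block also ended the calls of Cox7a2l (adjusted p 0.0563, and 0.0356 without it) and Myh1 (0.0563 with it) in the shared-number libraries, where Rpl10 and Rpl4 passed in neither fit and Mb in both. Counts were lowest for Cox4i2, Ndufa4l2 and Atp5if1, at a mean of 2.12, 6.70 and 7.70 CPM, where few counts limit the precision. Groups of 2 libraries limit it through replication. Ppargc1a at 42.4 mg/kg lost its call only without pacDNA-L9 42.4 B, Mb in NT against WT kept it in all alternatives, and Atpaf1 lost it in several, with an adjusted p of up to 0.196 without the set term.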

Other observations

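Myh7, the slow myosin heavy chain, varied widely between animals. It measured 0.163 to 522 CPM in NT (n = 8), 1.54 to 46.8 CPM in WT (n = 5) and 13.1 to 484 CPM at pacDNA-L9 42.4 (n = 3). Over the same NT libraries the sum of the 85 members ran from 23070 to 34843 CPM. Myh4, the heavy chain of fast IIb fibres, measured 31009 to 75454 CPM in NT and 36494 to 52776 CPM in WT.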
